A study of Rattus norvegicus with 16 samples.

Results

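Nfkbia and Ptgs2 are genes that NF-kappa-B is known to switch on, and their transcripts were followed in NG108 cells after a short exposure to the antimalarial drug mefloquine. The members were all probe sets to which the platform annotation gives the symbol Nfkbia or Ptgs2: 2 probe sets for Nfkbia (X63594cds_at and X63594cds_g_at) and 1 for Ptgs2 (L25925_s_at). They stand for 2 of the 549 genes that are singly named on the array. The pair was chosen by the measured difference between mefloquine and control arrays over all 16 arrays, so that difference is given for Nfkbia and Ptgs2 as a description, with no test. All 3 probe sets passed the filter on dim probe sets described below.

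NG108 cells are labelled as rat neuronal, and the line is known to have come from the fusion of a rat glioma with a mouse neuroblastoma. There were 8 DMSO samples, kept in 0.25% dimethyl sulfoxide as the control, and 8 mefloquine samples, kept in 4400 ng/ml mefloquine, each for 2 hours. Whether the mefloquine samples also held DMSO was not stated in the labels used here. Each sample was hybridised to 1 Affymetrix rat array. The samples are numbered 1 to 8 in each group, but nothing says that they came from separate cultures, so the spread between them may be technical. No genotype, transgene or other treatment is named for either group. Of the markers of cell type, none of 15 neuronal and none of 7 microglial or macrophage genes had a probe set named for it alone. Of 10 glial genes, Vim and Clu were on the array and were above the floor on 16 of 16 arrays. Of 6 fibroblast genes, Col1a1 was above it on 16 arrays as well, and Col3a1 on 0. Of 5 endothelial genes only Kdr was on the array, above the floor on 0. These markers thus do not single out a cell type. In such cultures, fewer cells of a kind and less RNA per cell cannot be told apart.

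NF-kappa-B is a family of dimeric transcription factors that waits in the cytoplasm, held by inhibitors of the I-kappa-B family. Stress and cytokine signals activate a kinase complex that marks I-kappa-B for destruction by the proteasome, and the freed dimer enters the nucleus. Nfkbia encodes I-kappa-B-alpha, the best known of these inhibitors, and is itself a target, so its transcript refills the pool of inhibitor in a negative feedback loop. Ptgs2 encodes cyclooxygenase 2, the inducible enzyme that turns arachidonic acid into the precursor of prostaglandins. It answers to NF-kappa-B and also to AP-1, CREB and C/EBP factors, and in neurons it is known as an early response gene.

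The part of each promoter nearest the start is shown because these factors are known to act through promoters, and because the letters differ between the genes. Whether the factors act within these stretches was not tested. Each sequence runs from 250 bases before to 50 bases after the start that RefSeq's GRCr8 assembly of the rat genome gives, in the direction of transcription. The Nfkbia stretch is at chr6:78597023-78597322 on the minus strand and the Ptgs2 stretch at chr13:64713813-64714112 on the plus strand. Capitals in the Nfkbia promoter mark matches to NF-kappa-B motifs, and capitals in the Ptgs2 promoter mark a C/EBP and an E-box match.
Nfkbia: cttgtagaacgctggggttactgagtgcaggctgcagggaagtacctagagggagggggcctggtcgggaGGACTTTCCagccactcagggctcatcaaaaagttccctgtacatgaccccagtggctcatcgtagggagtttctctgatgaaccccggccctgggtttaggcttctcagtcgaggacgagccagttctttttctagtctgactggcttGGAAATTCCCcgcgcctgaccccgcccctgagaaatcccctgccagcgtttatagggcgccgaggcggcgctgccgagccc
Ptgs2: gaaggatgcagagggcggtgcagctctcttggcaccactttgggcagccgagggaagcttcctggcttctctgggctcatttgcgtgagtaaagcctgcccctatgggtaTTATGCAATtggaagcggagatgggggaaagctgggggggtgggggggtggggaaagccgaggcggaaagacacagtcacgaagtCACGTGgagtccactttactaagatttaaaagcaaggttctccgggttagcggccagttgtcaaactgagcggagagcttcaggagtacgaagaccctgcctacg

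Both strands were searched for each motif. The NF-kappa-B consensus of 10 letters matched the Nfkbia promoter once, on the opposite strand, from 31 to 22 bases before the start, a match found in 7.6% of 27457 rat promoters of the same length. A shorter core, GGANTTTCC, chosen after the Nfkbia sequence had been read, matched it at 2 places, from 180 to 172 bases before the start and inside the consensus match from 31 to 23 bases before it. This core was found in 1.26% of promoters. Neither pattern was found in the Ptgs2 window. That window held 1 match to the C/EBP motif TTNNGNAAT, from 140 to 132 bases before the start (12.1% of promoters), and 1 to the E-box CACGTG, from 55 to 50 bases before it (6.65%). Neither window held the AP-1 motif TGANTCA (7.33%) or the full CRE TGACGTCA (1.91%). A match is a description of letters and was not tested as a binding site, and more distant sites lie outside these windows.

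The values are linear intensities as deposited, in which signal from mismatched probes may exceed that of matched ones, so 26.9% of them are at or below 0. For differences, values under a floor of 426.5 were set to it (the 25th percentile of the positive values) and log2 was taken. Of 972 gene probe sets, the 545 that exceeded the floor on 8 or more arrays were tested. Calls were made at a limma adjusted p under 0.05 (Benjamini-Hochberg). The arrays had median intensities of 461 to 665 for gene probe sets. DMSO 3 stood apart, with a 3' over 5' ratio of 21.3 for beta-actin and 4.62 for GAPDH, against 1.31 to 2.67 and 1.02 to 1.48 on the other 15 arrays. It also correlated least with the rest, at a median of 0.855, and mefloquine 1 and 2 followed at 0.901 and 0.913, while the rest lay between 0.925 and 0.945. Arrays numbered 1 to 5 also differed from those numbered 6 to 8, a split that was noticed in these same data. The 2 ranges did not overlap, in either direction, for 12.5% of tested probe sets within DMSO arrays and for 16.5% within mefloquine arrays. The labels do not say what the numbers stand for. Results are therefore also given without the 3 arrays and within each range of numbers.

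Nfkbia was higher on mefloquine arrays by both of its probe sets. By the brighter one, X63594cds_at, the DMSO arrays 1 to 8 read 3683.2, 1794.1, 2673.1, 2794.3, 2470.6, 2772.7, 2792.5 and 2686.6. The mefloquine arrays 1 to 8 read 9551.5, 9444.9, 9010.8, 12013.4, 6490.5, 5040.7, 5358.0 and 4359.6. The groups did not overlap: the dimmest mefloquine array, number 8, lay above the brightest DMSO array, number 1. The means were 2708 ± 516 and 7659 ± 2725 (SD, n = 8 each), a log2 difference of 1.44 ± 0.21 (limma SE) or 2.71-fold. Of the 545 tested probe sets, 0.55% (3, for Nfkbia, Jun and Ddit3) had all mefloquine arrays above all DMSO arrays, and 1.47% (8) were higher by at least 2-fold. Both Nfkbia probe sets are among those 8, through the contrast that chose them.

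By the dimmer probe set, X63594cds_g_at, the DMSO arrays read 2551.3, 1566.6, 3154.1, 2032.0, 1859.7, 1319.5, 1421.9 and 1455.6 in order of their numbers. The mefloquine arrays read 5005.9, 5194.5, 4506.9, 6565.2, 3648.4, 3548.9, 2967.9 and 2965.2. Here the groups overlapped through a single control, DMSO 3, which lay above mefloquine 7 and 8. The other 7 DMSO arrays lay below every mefloquine array. The means were 1920 ± 642 and 4300.4 ± 1255 (SD, n = 8 each), a log2 difference of 1.17 ± 0.21 (limma SE) or 2.26-fold. Without DMSO 3 and mefloquine 1 and 2 the difference was 1.19 by this probe set and 1.31 by the brighter one.

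Ptgs2 was dim and did not share this pattern. The DMSO arrays read 609.1, 731.0, 163.1, 645.5, 554.8, 794.9, 781.2 and 666.7, and the mefloquine arrays read -285.5, -40.7, 567.3, 493.7, 719.0, 688.3, 567.8 and 503.8. The groups overlapped over most of their range: 6 of 8 mefloquine arrays lay below the DMSO median of 656.1, and none lay above the highest DMSO array. The 3 readings under the floor came from DMSO 3 and mefloquine 1 and 2, the same arrays that stood apart in other measures. The means were 618 ± 202 and 402 ± 363 (SD, n = 8 each), and the log2 difference on the floored scale was -0.25 ± 0.15 (limma SE), or 1.19-fold lower. Without the 3 arrays the means were 683 ± 89.5 (SD, n = 7) and 590.0 ± 93.8 (SD, n = 6), with a log2 difference of -0.22. Of all tested probe sets, 11.9% differed downward by at least as much as Ptgs2, and 53.6% had a difference below 0. How much of the mouse Ptgs2 or Nfkbia transcript these rat probes catch was not tested.

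**Figure D1:**
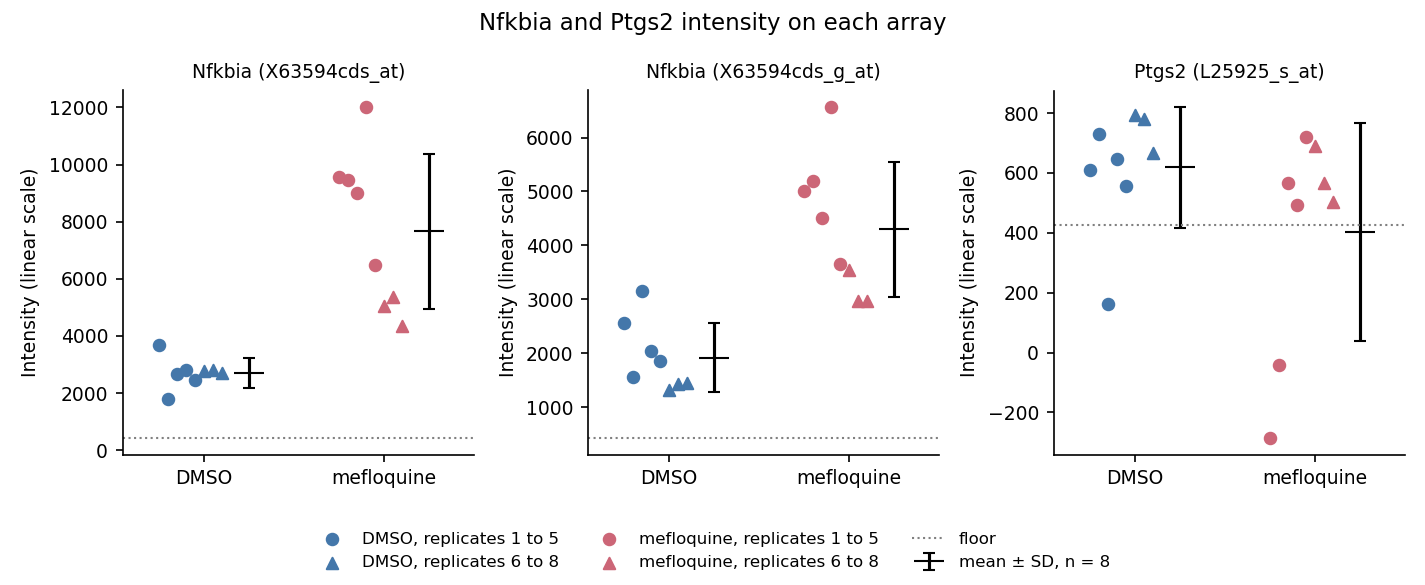
Intensity on a linear scale of both Nfkbia probe sets and the Ptgs2 probe set on each of 16 arrays, in order of replicate number within each group (circles for replicates 1 to 5, triangles for 6 to 8), with the mean ± SD of 8 arrays and the floor of 426.5 as a dotted line. The Nfkbia arrays with mefloquine read 4359.6 or more by X63594cds_at, above all DMSO arrays, while the Ptgs2 readings of both groups overlap and 3 of them lie under the floor.

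The size of the Nfkbia difference depended on the range of replicate numbers by one probe set and not by the other. By X63594cds_at the mefloquine arrays numbered 1 to 5 averaged 9302 ± 1964 (SD, n = 5) and those numbered 6 to 8 averaged 4919 ± 510 (SD, n = 3), without overlap. The DMSO arrays averaged 2683 ± 680 (SD, n = 5) and 2751 ± 56.3 (SD, n = 3). The difference was thus 1.80 on the log2 scale (3.49-fold) within replicates 1 to 5 and 0.83 (1.78-fold) within replicates 6 to 8. By X63594cds_g_at both groups were lower in replicates 6 to 8. The DMSO means were 2233 ± 627 (SD, n = 5) and 1399 ± 70.9 (SD, n = 3), and the mefloquine means 4984 ± 1067 (SD, n = 5) and 3161 ± 336 (SD, n = 3), again without overlap between the ranges in either group. The difference was 1.18 (2.26-fold) in the first range and 1.17 (2.25-fold) in the second. Among all tested probe sets, the ranges did not overlap, with replicates 1 to 5 higher, for 8.62% within DMSO arrays and for 11.4% within mefloquine arrays.

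Both probe sets carry the name of 1 reference sequence, X63594, and the ratio of their intensities was not constant. The brighter over the dimmer was 1.23 ± 0.24 on DMSO arrays 1 to 5 (SD, n = 5) and 1.97 ± 0.128 on DMSO arrays 6 to 8 (SD, n = 3). On mefloquine arrays the order was the other way, 1.87 ± 0.0876 (SD, n = 5) and 1.57 ± 0.209 (SD, n = 3). DMSO 3 had the lowest ratio of the 16 arrays, 0.848. The probe sets therefore changed unequally between arrays, and which of them follows the transcript more closely was not tested.

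Ptgs2 had its higher mean in replicates 6 to 8 in both groups. Its DMSO means were 541 ± 221 in replicates 1 to 5 (SD, n = 5) and 748 ± 70.4 in replicates 6 to 8 (SD, n = 3), and its mefloquine means 291 ± 431 (SD, n = 5) and 587 ± 93.7 (SD, n = 3). The first range holds all 3 arrays that read under the floor. The difference between the groups was -0.18 on the log2 scale in replicates 1 to 5 and -0.36 in replicates 6 to 8.

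**Figure D2:**
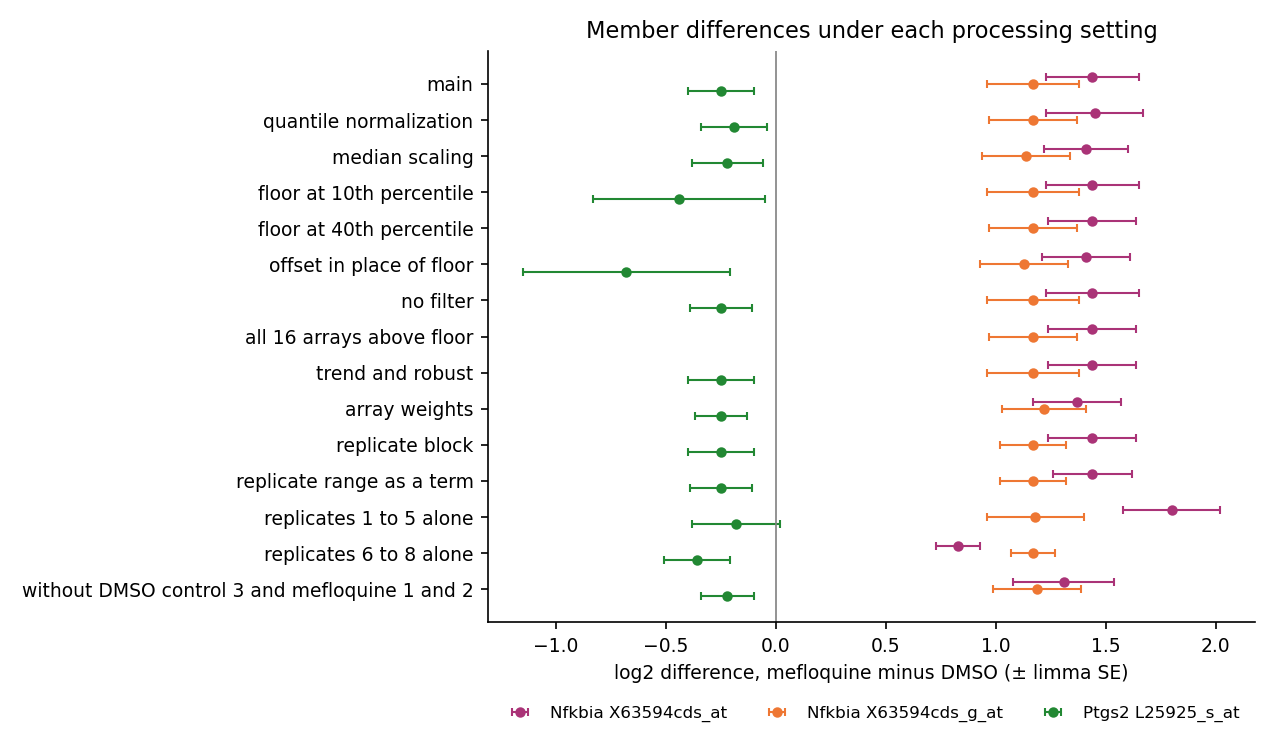
Log2 difference, mefloquine minus DMSO, of the 3 probe sets under the setting of the text and 14 alternatives (points, with limma standard errors as bars). The dimmer Nfkbia probe set lies between 1.13 and 1.22 throughout, the brighter one moves from 0.83 to 1.80 between the replicate ranges, and Ptgs2 lies between -0.68 and -0.18 where it passed the filter.

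Within a treatment group, the arrays also allow the genes to be compared without the treatment difference that chose them. In all, 18 such relations were computed, each with an exact permutation test over every pairing of the 8 arrays (two-sided) and Benjamini-Hochberg adjustment over the 18. Among mefloquine arrays the 2 Nfkbia probe sets followed each other closely, with Pearson r = 0.96 (exact permutation p = 0.000918, adjusted 0.0165) and Spearman rho = 0.95 (exact permutation p = 0.00114, adjusted 0.0205). Without the 2 arrays farthest from the median r was 0.93 (exact permutation p = 0.0264, adjusted 0.25). Among DMSO arrays the same probe sets gave r = 0.35 (exact permutation p = 0.398, adjusted 0.597) and rho = 0.07 (exact permutation p = 0.882, adjusted 0.916), and r = -0.26 without the 2 farthest arrays. Whether the relation differs between the groups was not tested. The replicate ranges hold 5 and 3 arrays, too few for a correlation of their own. For all tests with the ranges centred separately, here and below, arrays were permuted only within their own range, which gives fewer pairings. With this centring r was 0.90 among mefloquine arrays (exact permutation p = 0.0375, adjusted 0.24) and 0.66 among DMSO arrays (exact permutation p = 0.204, adjusted 0.367).

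Ptgs2 ran against the dimmer Nfkbia probe set among the control arrays. Across DMSO arrays r was -0.88 (exact permutation p = 0.0036, adjusted 0.0216) and rho -0.90 (exact permutation p = 0.00456, adjusted 0.0274). DMSO 3 was the highest for Nfkbia and the lowest for Ptgs2. Without it r was -0.75 (exact permutation p = 0.0563, adjusted 0.203), without the 2 farthest arrays -0.78 (exact permutation p = 0.0653, adjusted 0.35), and with the ranges centred separately -0.80 (exact permutation p = 0.0569, adjusted 0.24). The size of r thus changed little, and the adjusted p passed in none of these. Across mefloquine arrays r was -0.52 (exact permutation p = 0.19, adjusted 0.31) and rho -0.59 (exact permutation p = 0.135, adjusted 0.321), with r = -0.73 without the 2 farthest arrays. The brighter Nfkbia probe set and Ptgs2 gave r = -0.14 across DMSO arrays (exact permutation p = 0.736, adjusted 0.78; rho = 0.12) and r = -0.52 across mefloquine arrays (exact permutation p = 0.19, adjusted 0.31; rho = -0.61).

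**Figure D3:**
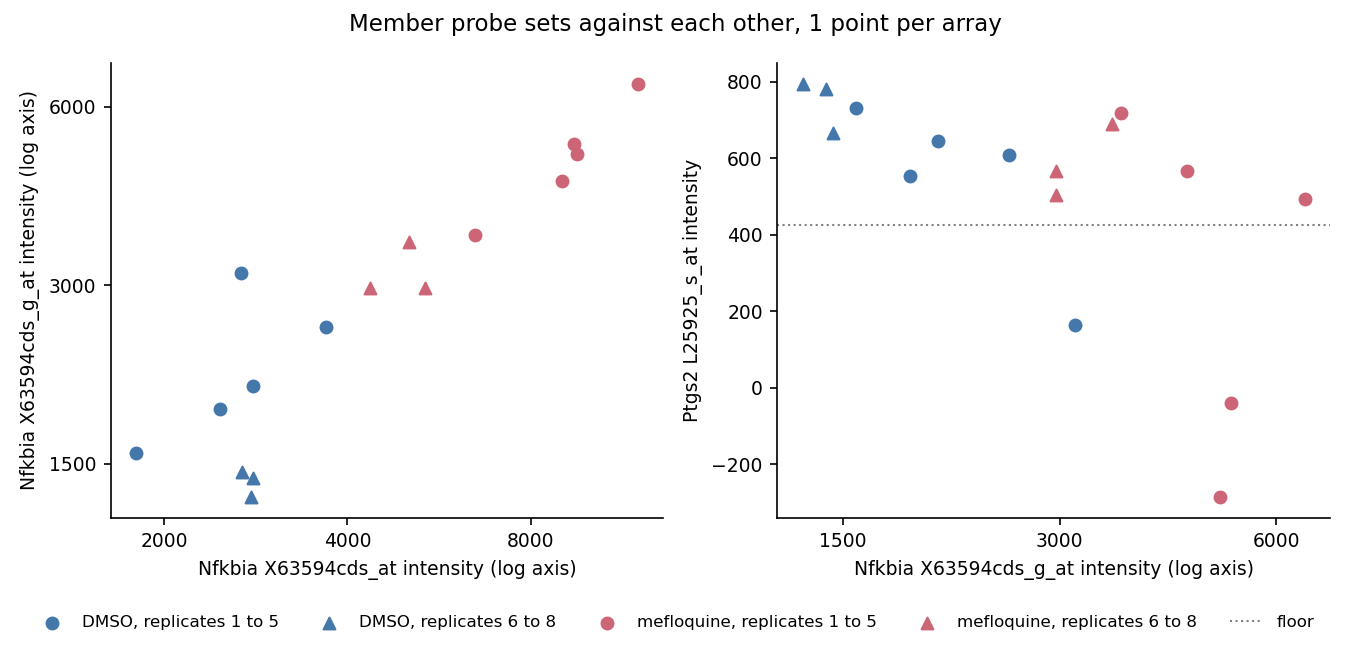
Intensity of the 2 Nfkbia probe sets against each other on log axes (left) and of Ptgs2 on a linear axis against the dimmer Nfkbia probe set on a log axis (right), with 1 point per array, circles for replicates 1 to 5 and triangles for replicates 6 to 8. The mefloquine arrays line up along the left panel (r = 0.96), whereas the DMSO arrays of replicates 6 to 8 lie below those of replicates 1 to 5 with the same brighter value, and the 3 arrays under the dotted floor in the right panel are DMSO 3 and mefloquine 1 and 2.

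The brighter Nfkbia probe set was also set against Jun, Junb and Ddit3, which encode AP-1 subunits and the stress factor CHOP. Across mefloquine arrays its r was 0.91 with Junb (exact permutation p = 0.0026, adjusted 0.0216; rho = 0.90, adjusted 0.0274), 0.84 with Ddit3 (exact permutation p = 0.0108, adjusted 0.0484; rho = 0.69, adjusted 0.312) and 0.77 with Jun (exact permutation p = 0.0146, adjusted 0.0525; rho = 0.62, adjusted 0.321). Without the 2 arrays farthest from the Nfkbia median these were 0.88, 0.61 and 0.32, a narrower range of Nfkbia values in which none passed after adjustment. Without mefloquine 1 and 2 instead they were 0.94, 0.91 and 0.92 (exact permutation test, adjusted p = 0.0417, 0.0563 and 0.025). With the ranges centred separately they were 0.64, 0.78 and 0.66, and none passed after adjustment (lowest adjusted p = 0.24, exact permutation test). Across DMSO arrays r was 0.12, 0.23 and 0.24 in the same order, with adjusted p from 0.649 to 0.78. Ptgs2 gave no relation with these 3 genes that passed in either group (adjusted p from 0.27 to 0.925, exact permutation test).

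Over all 16 arrays, with each group's mean removed, the genes most like the brighter Nfkbia probe set among 340 were Tat at r = 0.83, Vegfa at 0.80, Ppil2 at 0.73, Aanat at 0.64 and Junb at 0.63. Tat encodes tyrosine aminotransferase, Vegfa a growth factor for blood vessels and Aanat an enzyme of melatonin synthesis. The second Nfkbia probe set stood at 0.70 on the same measure, and the median gene at -0.02. With the ranges removed as well, the 5 genes were at 0.74, 0.61, 0.35, 0.47 and 0.29, and the second Nfkbia probe set lay above them at 0.76. For Ptgs2 the closest were Cdc42 at 0.86, Atp1b2 at 0.85, Clu at 0.83, Pdia4 at 0.80 and Srsf3 at 0.80, against a median of 0.17. Without DMSO 3 and mefloquine 1 and 2 the 5 were at 0.64, 0.66, 0.59, 0.49 and 0.34, against a median of 0.03. All of these values share arrays and scaling and are given as a description.

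The rest of the NF-kappa-B route was sparsely covered. Of 98 signalling genes listed, 10 were on the array and 6 were tested, and 0 of the 6 passed limma's test (0 at an unadjusted p under 0.05), where 1.28% of all tested probe sets did. That share is over all tested probe sets, the members included. It is so small that a count of 0 among 6 genes cannot set the list apart from it. None of the 13 inhibitors besides Nfkbia had a probe set named for it alone. Of the 5 NF-kappa-B subunits only Nfkb1, the p50 precursor, had one, and it was above the floor on 0 of 16 arrays, as was the tumour necrosis factor receptor Tnfrsf1a. The interleukin 1 receptor accessory chain Il1rap differed by 0.35 ± 0.19 (log2, SE; limma adjusted p = 0.982) and the kinase Map3k1 by 0.38 ± 0.26 and, on its other probe set, 0.57. Without DMSO 3 and mefloquine 1 and 2 these were 0.20 ± 0.16 for Il1rap and 0.21 ± 0.28 for the brighter Map3k1 probe set. The kinase Map3k3 differed by -0.28 ± 0.45 and the neurotrophin receptor Ngfr by 0.02 ± 0.30, and both turned in sign without the 3 arrays (0.03 and -0.26). Of the proteasome, which degrades I-kappa-B, the subunit Psmb2 was at -0.14 ± 0.10 and Psmb4 at 0.17 ± 0.14, and without the 3 arrays they were at -0.05 and 0.05. The median of the 6 was 0.10, against -0.01 over all tested probe sets.

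Of 76 other NF-kappa-B target genes listed, 27 were on the array and 16 were tested, and 0 passed limma's test, with 3 at an unadjusted p under 0.05 (Junb, Hmox1 and Ccnd1), as were 23 of all 545 tested probe sets. Beside the 1.28% of all tested probe sets that passed, a count of 0 among 16 cannot set this list apart either. Junb, an AP-1 subunit, differed by 0.95 ± 0.25 (log2, SE; limma adjusted p = 0.0981). It passed under some alternatives, among them median scaling (limma adjusted p = 0.0352) and leaving out mefloquine 8 (0.0347), over a range of 0.0347 to 0.688, and without the 3 arrays its difference was 0.60. The heme oxygenase Hmox1 differed by 0.51 ± 0.16 (limma adjusted p = 0.266) and cyclin D1 (Ccnd1) by 0.40 ± 0.18 (limma adjusted p = 0.982), with the other Ccnd1 probe set at 0.03. Without the 3 arrays Hmox1 was at 0.37 and Ccnd1 at 0.21. For the survival factor Bcl2l1 the brightest probe set gave 0.45 ± 0.27 (0.18 without the 3 arrays) and the others -0.32, -0.33 and 0.01. The quinone reductase Nqo1 and the cytokine Il15 were at -0.34 ± 0.19 and -0.18 ± 0.13. The median of the 16 was 0.13, with 10 above 0 and 6 below. Of the inflammatory targets, Il6, Il1a, the endothelial selectin Sele and the apoptosis inhibitor Birc2 were above the floor on 0 of 16 arrays, and the adhesion molecule Vcam1 on 4. Others were above the floor more often: the cytokine genes Il1b and Il12b on 8 and 12 arrays, the nitric oxide synthase Nos2 on 10 and the selectin Selp on 16. The Il1b means were 290.2 for DMSO and 436.5 for mefloquine, around the floor of 426.5. Being above the floor was not a test of detection.

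Around Ptgs2, 12 of 45 listed genes of the prostanoid and arachidonate pathway were on the array and 3 were tested. Of these 0 passed limma's test (0 at an unadjusted p under 0.05): prostacyclin synthase Ptgis differed by 0.30 ± 0.22, the phospholipase Pla2g1b by 0.18 ± 0.17 and the epoxide hydrolase Ephx1 by -0.14 ± 0.13 (log2, SE). With only 3 genes tested, that count cannot set the list apart from all tested probe sets. Without the 3 arrays Ptgis was at 0.03 and Pla2g1b at 0.10. The constitutive cyclooxygenase Ptgs1 was above the floor on 1 array, and the cytosolic phospholipase Pla2g4a, which releases arachidonic acid, on 0. A further list held 28 genes of AP-1, CREB, CCAAT and related factors, drawn up for the Ptgs2 promoter, of which 12 were on the array and 6 were tested. Whether each of them acts at this promoter was not tested. Of the 6, 2 rose and 0 fell, against 1.1% (6) of all tested probe sets that rose. Those 6 probe sets include 3 for Jun and 1 for Ddit3. Most of that share thus comes from the same 2 genes, and it is no separate background for this list. Ddit3 rose by 2.22 ± 0.26 (log2, SE; limma adjusted p = 9.28e-05) and Jun by 1.83 ± 0.29 (limma adjusted p = 0.0012), both calls that were known when this list was drawn up. The other tested Jun probe sets rose less, by 1.11 ± 0.26 and 1.14 ± 0.27 (limma adjusted p = 0.0425 for each). Without the 3 arrays Ddit3 was at 2.38 and the brightest Jun probe set at 1.7. Fos, Creb1 and Ppard differed by -0.22 ± 0.18, 0.14 ± 0.15 and 0.07 ± 0.21. Without the 3 arrays Creb1 and Ppard were each at -0.05. The median of the 6 was 0.55.

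**Figure D4:**
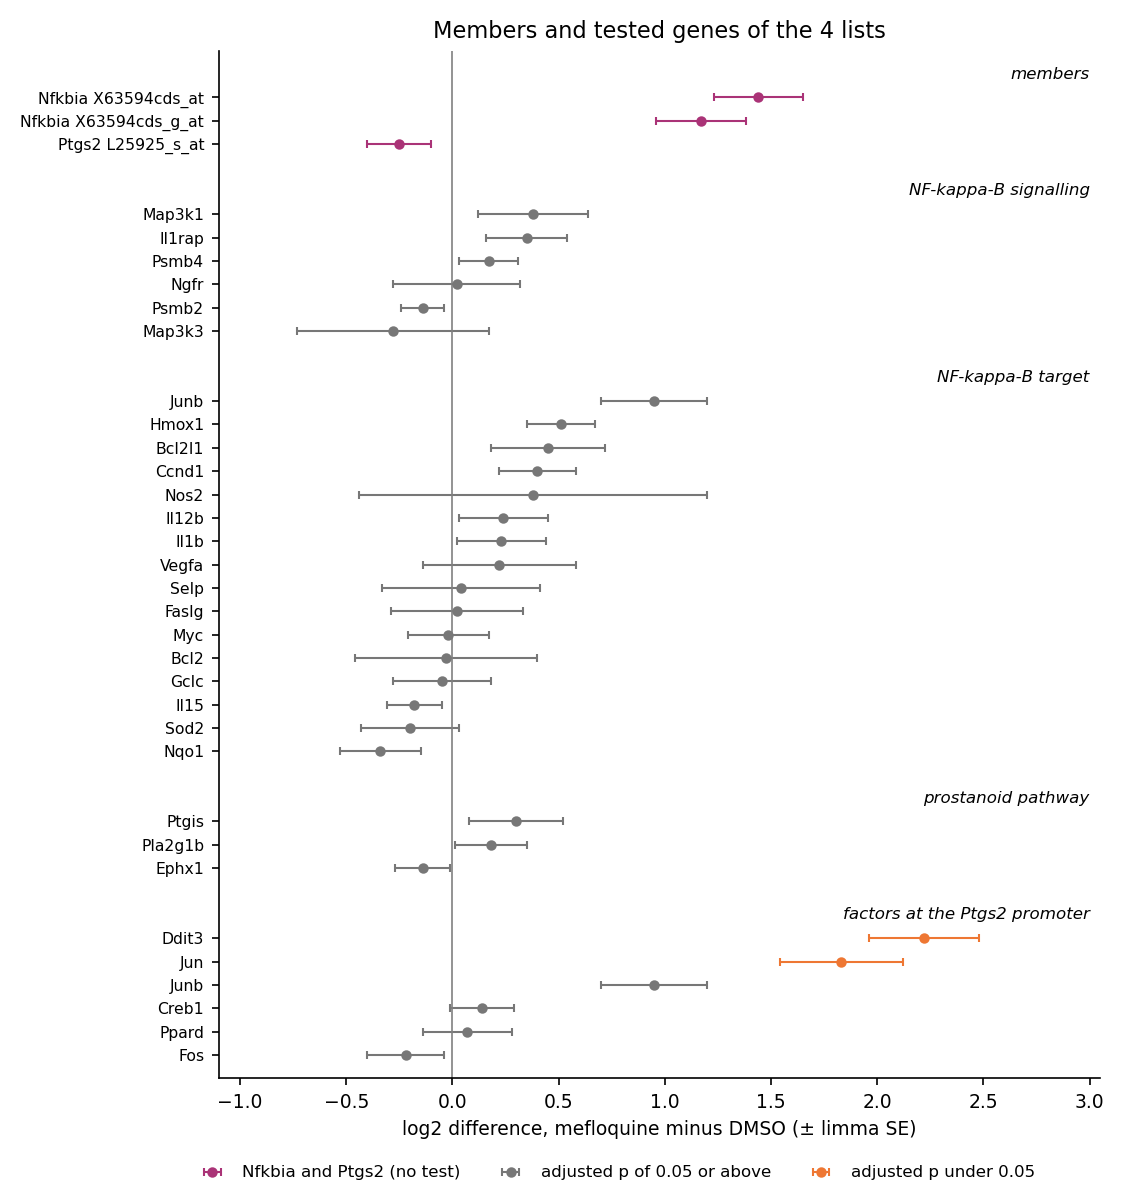
Log2 difference, mefloquine minus DMSO, with limma standard errors, of the 3 Nfkbia and Ptgs2 probe sets and of each tested gene of the 4 lists by its brightest probe set, where Junb stands in 2 lists. Ddit3 at 2.22 and Jun at 1.83 passed the test, Nfkbia at 1.44 and 1.17 is shown without a test, and the other listed genes lie between -0.34 and 0.95.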

How the data were processed

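The authors deposited 1 table of array intensities, scaled per chip with the standard Affymetrix factors and not transformed further, per the labels, from 10 µg of total RNA per array. No source used here names the scanner software or the target of the scaling. Symbols came from GEO's platform annotation, and promoters were matched by Entrez identifier (2 of 2 members). Control probe sets (59 of 1031) entered the floor but not the tests. A linear model with treatment as its only term was fitted by limma 3.58.1 (R 4.3.3), with moderated variances, and tested on simulated data. Fold changes are ratios of geometric means on the floored scale, which understates the change of dim probe sets. Correlations used floored log2 values (scipy 1.17.1, numpy 2.4.6).

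The members and lists were chosen with earlier results of these data known. Named genes were the members, called list genes and up to 6 others of each list with the smallest p, and the 5 genes most like each member. Each gene entered by its brightest tested probe set. Alternatives were 2 normalizations, 2 floors, an offset of 100, 2 filters, 2 variance models, the replicate number or range in the model, each range alone, and arrays left out. The replicate numbers were not treated as pairs. Precision is limited by having 8 arrays in a group.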

Additional observations from a re-analysis of the deposited data

Results flagged for a closer look

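For each named probe set and quality ratio, Dixon's test asked whether the top or bottom log2 value of a group lay apart from the remaining 7. This was so in 8 of 52 comparisons (15.4%; about 5% arise by chance), and DMSO 3 was the array in 7 of them. No Nfkbia or Ptgs2 value stood out in this test, which used floored values. Ptgs2 on DMSO 3 read 163.1, against 554.8 to 794.9 on the other DMSO arrays, and had been raised to the floor. Whether it stands apart without the floor was not tested. DMSO 3 was low for Ngfr at 9.53 (other DMSO arrays 11.60 to 12.18), for Hmox1 at the floor of 8.74 (others 9.58 to 10.04), for Ephx1 at 9.83 (others 10.32 to 10.69) and for Creb1 at 9.13 (others 9.74 to 10.16). It was high for Ddit3 at 10.72 (others 8.74 to 9.57), and on the log2 scale its beta-actin 3' signal exceeded the 5' signal by 4.42 (others 0.39 to 1.42) and its GAPDH signal did so by 2.21 (others 0.18 to 0.56). Map3k3 was high on mefloquine 8 at 11.79 (other mefloquine arrays 8.74 to 9.40).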

How the results depend on the processing

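The direction of all 3 Nfkbia and Ptgs2 probe sets was the same under every alternative run. With 1 array left out at a time, X63594cds_at lay between 1.34 and 1.54 (log2), X63594cds_g_at between 1.08 and 1.29 and Ptgs2 between -0.33 and -0.20. X63594cds_at was at 0.83 in replicates 6 to 8 alone, and Ptgs2 at -0.68 with an offset in place of the floor. Ptgs2 did not pass the filter with the floor at the 40th percentile or with all 16 arrays above the floor, so these gave no value. With the replicate number as a replicate block the differences were 1.44, 1.17 and -0.25, and 8 probe sets were called in place of 7. Junb then passed as well (limma adjusted p = 0.0359). Same-numbered arrays deviated together with correlations of 0.0569 to 0.593, above 0.1 in 7 of 8 pairs, and 2 of 8 DMSO arrays correlated best with their own number. After DMSO 3, the highest 3' over 5' ratios were those of DMSO 8 and mefloquine 8, at 2.67 and 2.58 for beta-actin and 1.48 and 1.46 for GAPDH. The numbers were not treated as pairs, but whether they stand for pairs is not known from the labels or these values.

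The count of all called probe sets was 4 under quantile normalization, with the floor at the 10th or 40th percentile and with the offset, 3 with all 16 arrays above the floor and 1 in replicates 6 to 8 alone, and 4 to 8 with 1 array left out. The count for the target list was 1 (Junb, limma adjusted p = 0.0347 to 0.0364) under median scaling, the replicate block and the replicate range as a term, and 0 to 1 with 1 array left out (1 without mefloquine 8). For the list drawn up for the Ptgs2 promoter it was 1 with all 16 arrays above the floor, 0 in replicates 6 to 8 alone, and 2 to 3 with 1 array left out. In replicates 6 to 8 alone Psmb2 was at 0.03, Map3k3 at 0.13, Ngfr at -0.06, Bcl2l1 at -0.24, Creb1 at -0.19 and Ppard at -0.21. Without DMSO 3 and mefloquine 1 and 2, Map3k3 was at 0.03, Ngfr at -0.26, Creb1 at -0.05 and Ppard at -0.05. Ngfr was at -0.00 under quantile normalization, -0.01 under median scaling and -0.22 with array weights. With 1 array left out Ngfr ran from -0.27 to 0.11 and Ppard from -0.03 to 0.17. The cause was not tested.

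Of the correlations, X63594cds_g_at with Ptgs2 across DMSO arrays was -0.78 under quantile normalization, -0.80 with ranges centred, -0.75 without DMSO 3 and -0.78 without the 2 farthest arrays, none of which passed. Under median scaling r was -0.92, which passed (exact permutation test, adjusted p = 0.0165), while rho was -0.81 and did not pass (adjusted p = 0.132). X63594cds_at with Ddit3 across mefloquine arrays was 0.76 under quantile normalization, 0.78 under median scaling and with ranges centred, 0.91 without mefloquine 1 and 2 and 0.61 without the 2 farthest arrays, none of which passed. With Junb there it was 0.64 with ranges centred and 0.88 without the 2 farthest arrays, neither of which passed, and with Jun 0.92 without mefloquine 1 and 2, which passed. The 2 Nfkbia probe sets across mefloquine arrays gave 0.90 with ranges centred and 0.93 without the 2 farthest arrays, neither of which passed. Across DMSO arrays X63594cds_at with Junb was -0.25 under quantile normalization and -0.08 under median scaling, and without the 2 farthest arrays it was -0.26 with X63594cds_g_at and 0.53 with Ptgs2. Ptgs2 with Jun across mefloquine arrays was 0.18 with ranges centred and 0.04 without the 2 farthest arrays, and across DMSO arrays -0.03 without the 2 farthest. Ptgs2 with Junb across DMSO arrays was -0.31 without DMSO 3 and -0.28 without the 2 farthest, and with Ddit3 0.16 without DMSO 3. These tests over 6 or 7 arrays are less able to pass than those over 8.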

Other observations

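The promoter motifs were also set against the treatment difference of the 271 other tested genes that had a promoter sequence. The 29 genes with an NF-kappa-B consensus match had a median log2 difference of -0.08, from -0.51 to 0.38, and 0 of them rose by limma's test. The 242 genes without a match had a median of -0.03, and 1 of them rose. With so few risers, the counts cannot set genes with a match apart from those without. Among the 29 were Il1rap at 0.35 and Map3k1 at 0.38, which also stand in the list of signalling genes, and the filament gene Vim at -0.08. The shorter core was found in only 2 of these promoters, those of the kinase Mapk6, at 0.07 ± 0.11 (log2, SE), and of the ERK phosphatase Dusp6, at -0.94 ± 0.38 (limma adjusted p = 0.821).

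Genes with the AP-1 motif (13), the CRE (10), the C/EBP motif (21) or the E-box (31) had medians of -0.01, 0.07, 0.01 and -0.06. Of these, 1 rose by limma's test, Ddit3, whose promoter held the AP-1 motif. These are descriptions over genes that share arrays, with no test.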
